A study of Mus musculus with 5 samples.

Results

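This section describes the RNA of 10 red cell lineage genes in sorted mouse KLS cells, a fraction positive for c-Kit and Sca-1 and without lineage markers that holds haematopoietic stem cells and multipotent progenitors. Of these genes, 4 encode transcriptional regulators of the erythroid lineage (Gata1, Klf1, Zfpm1 and Nfe2) and 6 encode products used by red cells and their precursors (Alas2, Car1, Car2, Slc4a1, Ank1 and Tfrc). They were represented by every probe set of the Affymetrix array whose platform annotation gave 1 of the 10 symbols and no other, which gave 21 of 45101 probe sets, or 10 of 18194 genes with a symbol of their own. Of the 21, 18 were ordinary probe sets that were tested and 3 were control probe sets of Tfrc that were described only.

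The control group, titled wild type, had 2 arrays and the genotype Rb +/+, p130 +/+, p107 +/-, so that 1 p107 allele was already missing in the controls. The Rb family deficient group had 3 arrays and the genotype Rb -/-, p130 -/-, p107 -/-. In both groups recombination was induced through Mx1-Cre, a Cre gene under an interferon-responsive promoter that is active in many cell types besides blood cells, in mice 6 weeks old, and sorting followed 2 months after that. Strain and sex are not given in the labels, nor whether an array came from 1 animal or from a pool, so the p-values below measure only the spread between these arrays, which may be technical.

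Of the 3 targeted genes, Rbl1, which encodes p107, fell from 7.75 ± 0.83 to 4.71 ± 0.45 (adjusted p = 0.0266 in limma, 1 probe set per gene). Rb1 read 8.74 ± 0.13 and 8.39 ± 0.58, and Rbl2, which encodes p130, 8.31 ± 0.44 and 7.84 ± 0.27, and neither passed; whether their probe sets lie within the deleted stretches is not given, so these readings do not check the labels. Deficient 2 and control 2 stood apart in sex-linked RNA. Xist read 12.45 on deficient 2 and 5.09 and 5.51 on the other deficient arrays, with 6.12 and 10.67 in controls, and the Y-linked gene Eif2s3y read 3.50 on deficient 2 against 9.81 to 10.37 on the other 4 arrays. Control 2 also stood apart from control 1, with the higher Xist reading beside an Eif2s3y reading of 9.81. The differences of Klf1, Car1, the genes most like Car1 and some other genes named below are given with and without deficient 2.

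GATA1 binds DNA together with its cofactor FOG1, the product of Zfpm1, and drives genes of the erythroid and megakaryocytic lineages, among them Klf1. KLF1 in turn binds CACCC elements of globin, haem and membrane genes, and NF-E2, a dimer of the Nfe2 product with a small MAF protein, acts in platelet formation and at the globin loci. Multipotent progenitors are known to carry low levels of lineage genes before commitment, whereas haem synthesis by ALAS2, the anion exchanger encoded by Slc4a1 and the ankyrin that holds it to the membrane skeleton belong to maturing red cells.

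The stretch of 120 bases before the annotated start site was searched for words that GATA1 and KLF1, members themselves, are known to bind, in members and in red cell genes discussed further below. The windows shown are examples picked because they hold a match, so they say nothing of how common one is; those of Gata1, Tfrc, Aqp1 and Slc38a5 held none and are not shown. Sequences are from RefSeq (build GRCm38.p6), read 5′ to 3′ on the strand of the gene. Capitals mark matches to the GATA words AGATAA and TGATAA, or to the CACCC words CCACACCC and CCACGCCC, on either strand. The 2 families did not overlap in these windows. The promoter table held 5 of the 10 members; Nfe2, Car1, Car2, Slc4a1 and Ank1 were not in it.
Klf1, chr8:84901862-84901981, plus strand: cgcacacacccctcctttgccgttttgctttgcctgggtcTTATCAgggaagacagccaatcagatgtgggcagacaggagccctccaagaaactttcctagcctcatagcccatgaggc
Zfpm1, chr8:122282021-122282140, plus strand: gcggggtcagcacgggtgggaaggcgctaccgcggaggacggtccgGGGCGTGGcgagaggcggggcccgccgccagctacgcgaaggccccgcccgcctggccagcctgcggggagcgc
Alas2, chrX:150547297-150547416, plus strand: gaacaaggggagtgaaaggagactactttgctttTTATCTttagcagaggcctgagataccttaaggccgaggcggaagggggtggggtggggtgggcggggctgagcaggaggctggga
Ermap, chr4:119189996-119190115, minus strand: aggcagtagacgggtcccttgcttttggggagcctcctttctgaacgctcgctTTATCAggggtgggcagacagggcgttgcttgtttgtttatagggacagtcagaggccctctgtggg
Kel, chr6:41704326-41704445, minus strand: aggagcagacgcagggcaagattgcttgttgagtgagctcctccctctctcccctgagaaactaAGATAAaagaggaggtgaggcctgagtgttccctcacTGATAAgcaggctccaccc
Rhag, chr17:40811029-40811148, plus strand: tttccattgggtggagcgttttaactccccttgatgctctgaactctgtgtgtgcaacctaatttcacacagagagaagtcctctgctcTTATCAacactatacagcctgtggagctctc
Rhd, chr4:134864416-134864535, plus strand: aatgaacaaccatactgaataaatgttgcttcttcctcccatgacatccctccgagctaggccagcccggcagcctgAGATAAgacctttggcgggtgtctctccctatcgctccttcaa

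A GATA word lay in this stretch of Klf1, beginning 80 bases before the start, and of Alas2, 86 bases before it, and of none of the windows of Gata1, Zfpm1 and Tfrc. Zfpm1 held a CACCC word 74 bases before the start. Among 32851 windows of the same length, 7.63% held a GATA word and 4.92% a CACCC word. The NF-E2 word TGAGTCA and words of the E2F factors were searched as well. The members' windows held neither, beside 2.3% and 0.962% of all windows. A match describes these letters and shows no binding.

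Levels are log2 of the deposited RMA intensity, given as mean ± SD over 2 control and 3 deficient arrays, and each difference subtracts the control mean from the deficient mean. The median probe set read between 4.71 and 4.74 on the 5 arrays and serves as the mark for a dim signal. In the test across all probe sets (limma with Benjamini-Hochberg adjustment over 45037 probe sets), 0 of the 18 member probe sets passed an adjusted p under 0.05, against 0.491% of all probe sets (0.164% higher, 0.326% lower). At an unadjusted p under 0.05 there were 6 of 18, 3 higher and 3 lower, against 14.1% of all probe sets. Groups of arrays did not overlap for 8 of 18, 3 higher and 5 lower in the deficient cells, against 30.5% of all probe sets, 15.4% higher and 15.2% lower. None of the members therefore changed beyond the threshold, and their values follow as measured. In a sorted population, fewer cells of a type and less RNA per cell cannot be told apart.

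**Figure D1:**
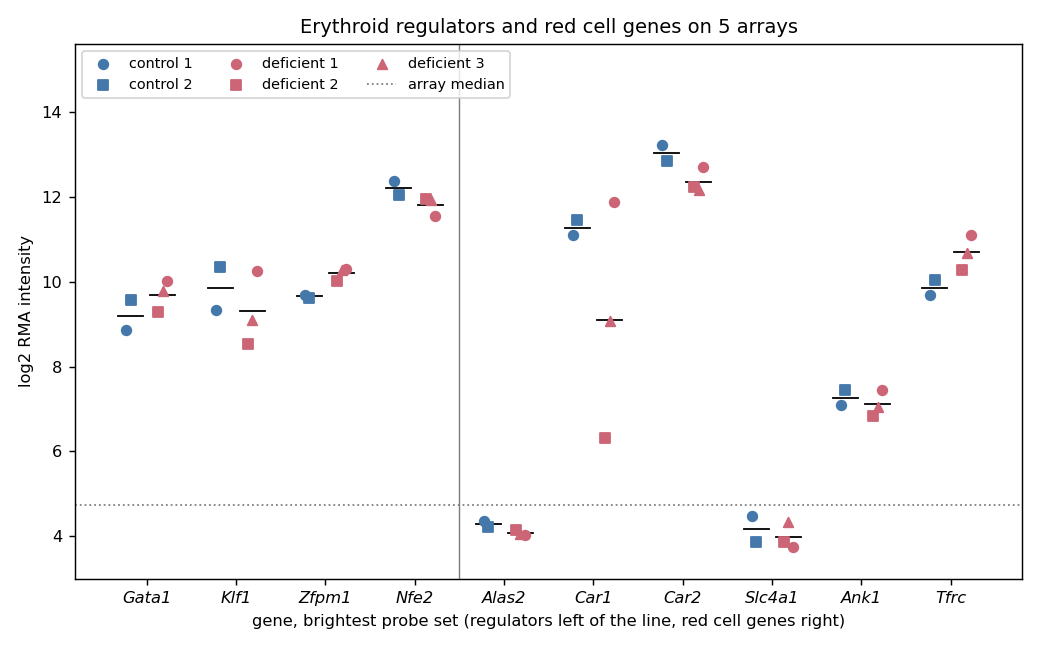
Log2 RMA intensity (vertical axis) of the brightest probe set of each gene on the 2 control arrays (blue) and 3 deficient arrays (red), with group means as black bars and the array median as a dotted line. Car1 spreads over 5.57 log2 units, while Alas2 and Slc4a1 lie below the array median on all 5 arrays.

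Among the regulators, Gata1 and Zfpm1 had higher means in deficient cells and Klf1 and Nfe2 lower ones. Gata1 (1449232_at), the lineage's central factor, read 8.85 and 9.56 in the control arrays and 10.02, 9.28 and 9.78 in the deficient arrays. The groups overlapped, and the means of 9.20 ± 0.50 and 9.69 ± 0.38 differed by 0.49 (SE 0.29, 95% interval -0.22 to 1.20, adjusted p = 0.547 in limma). Klf1 (1418600_at), the factor most tied to the red cell programme, read 9.34 and 10.35 in controls and 10.26, 8.53 and 9.09 in deficient cells. Here too the groups overlapped, with deficient 1 near the higher control and deficient 2 below both. The difference was -0.55 (SE 0.54, interval -1.89 to 0.78, adjusted p = 0.756), and with 1 array left out it was -0.05 without control 2, -1.05 without control 1, -1.03 without deficient 1, -0.17 without deficient 2 and -0.45 without deficient 3. Where a control is left out, here and below, the lone control is assumed to vary like the deficient arrays, which alone give the spread.

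Zfpm1, which encodes the GATA1 cofactor FOG1, had the smallest p among the members. Its brighter probe set (1451046_at) read 9.69 and 9.62 in controls and 10.30, 10.02 and 10.28 in deficient cells. All 3 deficient arrays were above both controls, by a difference of 0.54 (SE 0.13, interval 0.23 to 0.86), or 1.46-fold. That did not pass over all probe sets (adjusted p = 0.143) or with 1 probe set per gene (adjusted p = 0.0970, limma). The other probe set (1423603_at) differed by a like amount, 0.56 (SE 0.23, adjusted p = 0.354), also without overlap. With any single array left out, the difference of the brighter one ran from 0.50 to 0.63.

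Nfe2 (1452001_at), which encodes the subunit of NF-E2 that pairs with a small MAF protein, read 12.37 and 12.05 in controls and 11.55, 11.94 and 11.92 in deficient cells. All deficient arrays lay below both controls, with a difference of -0.41 (SE 0.17, interval -0.83 to 0.02, adjusted p = 0.383).

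Of the red cell genes, 5 had lower means in deficient cells on their brightest probe set and Tfrc had a higher one. Tfrc encodes the transferrin receptor, which brings iron into erythroblasts and into dividing cells in general. Its brightest probe set (1452661_at) read 9.68 and 10.03 in controls and 11.11, 10.27 and 10.68 in deficient cells. The groups did not overlap, and the difference was 0.83 (SE 0.26, interval 0.20 to 1.47, adjusted p = 0.230), or 1.78-fold. The other Tfrc probe sets were dimmer and differed by 0.20 (1422966_a_at) and 0.21 (1422967_a_at). The 3 control probe sets of the gene, placed towards the 3′ end, in the middle and towards the 5′ end of the transcript, read 4.54 to 4.87, 3.43 to 3.66 and 3.26 to 3.60 over the 5 arrays. Those ranges lie around or below the array median, and the gene's higher reading therefore rests on 1 probe set.

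Car2 and Car1 encode cytosolic carbonic anhydrases, which hydrate carbon dioxide; Car1 is a marker of erythroid progenitors, and Car2 is also expressed in many other cells. Car2 (1448752_at) read 13.23 and 12.84 in controls and 12.69, 12.22 and 12.17 in deficient cells. All deficient arrays were below both controls, by -0.68 on the means (SE 0.21, interval -1.19 to -0.17, adjusted p = 0.225). Car1 (1416193_at) read 11.09 and 11.45 in controls and 11.88, 6.31 and 9.07 in deficient cells. Deficient 1 was thus above both controls, and deficient 2 was 5.57 below deficient 1. The means of 11.27 ± 0.26 and 9.09 ± 2.79 differed by -2.18 (SE 1.48, interval -5.81 to 1.45, adjusted p = 0.614). Without deficient 2 the Car1 difference was -0.79, and without deficient 1 it was -3.58.

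The genes of the mature red cell were dim or little different. Alas2 (1451675_a_at), which encodes the first enzyme of haem synthesis in erythroid cells, read 4.35 and 4.21 in controls and 4.03, 4.15 and 4.06 in deficient cells, below the array median everywhere. Its difference was -0.20 (SE 0.11, adjusted p = 0.512). The 3 probe sets of Slc4a1, the anion exchanger gene, read between 3.51 and 4.49 and were also below the median on all arrays. Their differences were -0.20 (1416464_at), -0.54 (1434502_x_at, without overlap, adjusted p = 0.252) and 0.05 (1431743_a_at). RMA compresses differences at such signals, so no fold is given for them.

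Ank1, the ankyrin gene, was above the median on its brightest probe set (1419421_at), with 7.09 and 7.45 in controls and 7.45, 6.83 and 7.05 in deficient cells. The groups overlapped and differed by -0.16 (SE 0.21, adjusted p = 0.829). The other 3 Ank1 probe sets read between 3.38 and 5.24 and differed by -0.27 (1425677_a_at), -0.16 (1452512_a_at) and 0.11 (1443291_at). In all, 6 of the 18 tested probe sets, from 4 genes, were below the array median on every array.

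**Figure D2:**
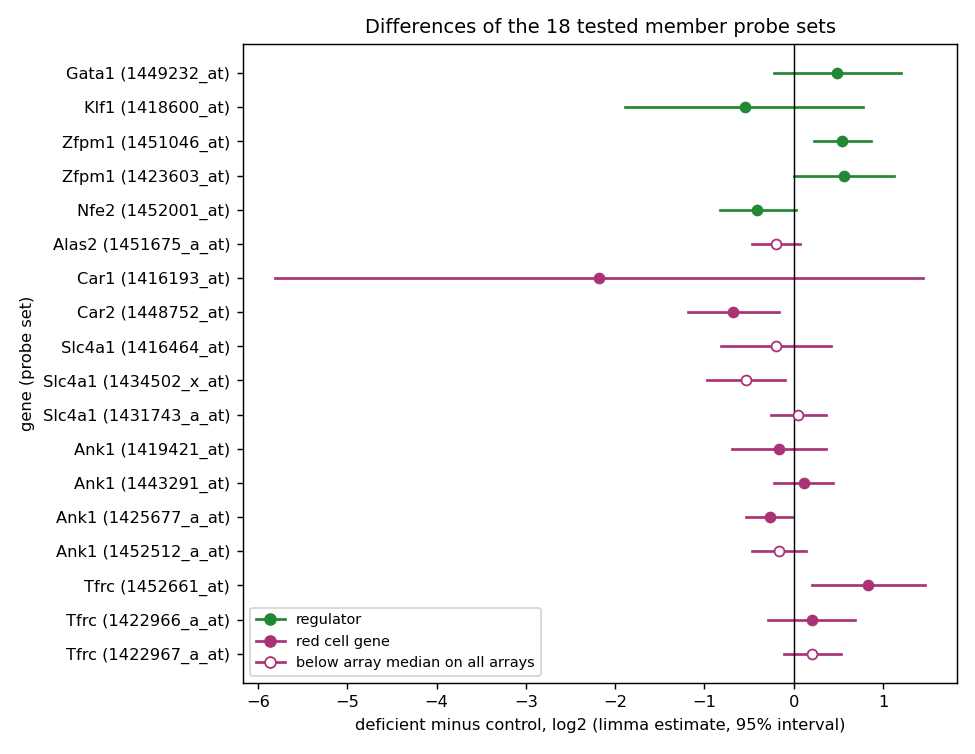
Deficient minus control difference (horizontal axis, log2) of the 18 tested probe sets with 95% intervals from limma, for regulators (green) and red cell genes (purple); open points read below the array median on all arrays. The Car1 interval runs from -5.81 to 1.45 and that of the brighter Zfpm1 probe set from 0.23 to 0.86.

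The regulators were then set against the red cell genes. The median difference was 0.04 over the 4 regulators (2 higher, 2 lower, from -0.55 to 0.54) and -0.20 over the 6 red cell genes (1 higher, 5 lower, from -2.18 to 0.83), beside a median of -0.01 over all 18193 genes. With each gene centred on its control mean, the mean of the regulators was 0.30, -0.29 and 0.04 on deficient 1, 2 and 3, and that of the red cell genes was 0.17, -1.04 and -0.42. The regulators' mean change exceeded that of the red cell genes by 0.45 (SD of the 3 deficient arrays 0.31), and by 0.10 when Car1 was left out, so Car1 accounted for most of the gap. Per array this gap was -0.17 and 0.17 in controls and 0.13, 0.75 and 0.46 in deficient cells, so the groups overlapped. No test was made, since the genes were chosen with results known.

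Deficient 1 and deficient 2 also differed in some red cell genes besides Car1 and Klf1. Likeness was measured as the root mean square distance between log2 values centred on each gene's mean, over the 5 arrays. The closest genes to Car1 were Ermap (0.84), an erythroid membrane adhesion gene, Slc38a5 (0.96), an amino acid transporter gene, and Cldn13 (1.04), a claudin gene. Ermap (1418909_at) read 8.30 and 8.87 in controls and 9.85, 5.91 and 7.08 in deficient cells. Slc38a5 (1454622_at) read 6.08 and 6.89, then 7.38, 4.06 and 4.86. In each of the 3, as in Car1, deficient 1 was the highest array and deficient 2 the lowest, though Cldn13 on deficient 1 (7.97) was within 0.01 of control 2 (7.96). These genes were picked for their likeness to Car1 over the same 5 arrays, so the shared order largely follows from that choice and lends no support. The Y-linked gene Kdm5d, which read 3.25 on deficient 2, ranked 5 in likeness to Car1 (1.09), next after Kel (1.05). The closest to Klf1 were Paqr9 (0.23), Fcgr3 (0.24) and Oaf (0.25). Mt2 and the blood group gene Rhd, both at 0.26, came next, and several of the genes closest to Klf1 are not red cell genes.

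Among 28 measured genes of the red cell membrane, its skeleton and the late red cell lists, 8 ranged over at least 1 log2 unit across the arrays. Of those 8, deficient 1 was highest and deficient 2 lowest in 6: Ermap, Cldn13, Aqp1 (a water channel gene), Pklr (the red cell pyruvate kinase gene), Rhag (a membrane protein gene of the Rh complex) and Kel (a blood group antigen gene). Over all genes with such a range, 3.52% (77 of 2189) had that order. The order was picked after the values had been seen, and this count is a description. Kel (1449057_at) read 6.22 and 6.70 in controls and 7.28, 4.19 and 5.67 in deficient cells. Rhag (1419014_at) read 8.44, 6.62 and 7.05 in deficient cells, around a control mean of 7.12 ± 0.16. Rhd (1417049_at), which is not among the 6 because control 2 was its highest array, read 6.36 and 7.71, then 7.51, 5.46 and 5.71. Of the 6 genes, 5 were in the promoter table, and 4 of these (Ermap, Kel, Rhag and Pklr) held a GATA word within 120 bases before a start site, as printed above for all but Pklr. Over all measured genes of these lists it was 7 of the 22 in the table, these 4 included. The share of all windows was 7.63%, which counts windows and not genes, and genes with several start sites have more than 1 window. Whether the word goes with the array order was not tested.

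**Figure D3:**
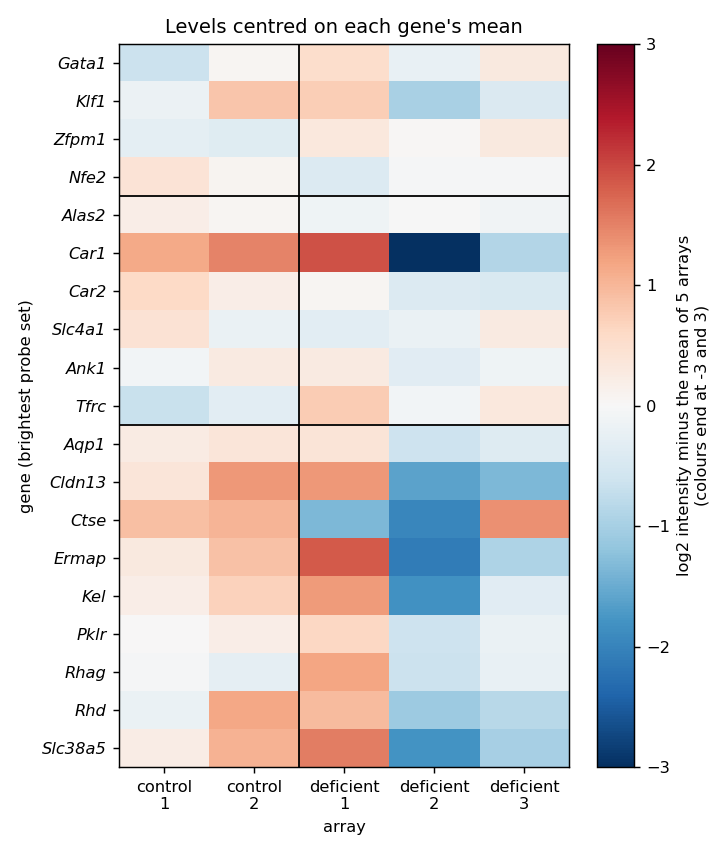
Log2 intensity minus each gene's mean over 5 arrays (colour) for the 4 regulators, the 6 red cell genes and other red cell genes that range over at least 1 log2 unit, with Slc38a5. Car1, Ermap, Kel and Cldn13 are high on deficient 1 and low on deficient 2, whereas Zfpm1, Nfe2, Alas2 and Slc4a1 are not.

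Without deficient 2 the difference went from -0.97 to -0.12 for Ermap, from -1.05 to -0.36 for Slc38a5, from -1.38 to -0.86 for Cldn13, from -0.75 to 0.01 for Kel and from 0.26 to 0.63 for Rhag. It went from -0.16 to 0.11 for Pklr, from -0.50 to -0.29 for Aqp1 and from -0.81 to -0.43 for Rhd, and none of the 8 passed in limma with or without that array. The part of the sex-linked difference of deficient 2 in the Car1 result was not tested.

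Other genes of the pathway were compared with 1 probe set per gene, a fit in which 2.24% of 18193 genes passed, 0.83% as higher and 1.41% as lower; 18.7% had an unadjusted p under 0.05, and 35.1% had groups that did not overlap (16.5% higher, 18.6% lower). Among 17 partners of the regulators and genes of the erythropoietin pathway, 0 passed in limma, Stat5a alone reached an unadjusted p under 0.05, and the median difference was -0.06. Stat5a, a signal transducer used by the erythropoietin receptor, differed by 0.39 (SE 0.14, adjusted p = 0.203). Tal1 and Lmo2, which join GATA1 on DNA, differed by 0.02 and -0.20. The erythropoietin receptor gene Epor read 7.18 ± 0.37 and 7.18 ± 0.42.

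Of 9 factors that precede or oppose the erythroid programme or are relatives of its regulators, 1 rose and 1 fell. Cebpa, the granulocyte-monocyte factor, rose from 7.28 ± 0.40 to 8.44 ± 0.12 (difference 1.16, SE 0.19, adjusted p = 0.0439 in limma). Klf2, a KLF1 relative of lymphoid and endothelial cells, fell by 1.72 on the log2 scale (SE 0.17, adjusted p = 0.0124). Gata2, which precedes GATA1 in progenitors, read 10.44 and 10.20 in controls and 10.78, 10.78 and 10.86 in deficient cells. It did not pass (difference 0.48, adjusted p = 0.109), and its other probe set differed by 0.42. With any 1 array left out, Cebpa passed in 1 of 5 fits, the one without control 2, and Klf2 in 3 of 5, failing without either control. Over all probe sets Cebpa did not pass (adjusted p = 0.0743).

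Haem genes gave 1 rise among 16 measured, that of Alas1, the housekeeping counterpart of Alas2. Alas1 (1424126_at) read 10.32 and 10.54 in controls and 11.42, 11.19 and 11.24 in deficient cells. The difference of 0.85 (SE 0.13) passed with 1 probe set per gene (adjusted p = 0.0385) and not over all probe sets (adjusted p = 0.0657), where the other Alas1 probe set (1455282_x_at) passed with 0.97 (adjusted p = 0.0420, limma). The Alas1 rise passed in 0 of the 5 fits with 1 array left out, with differences from 0.74 to 0.97. The list median was -0.05, and the smallest p among the others belonged to Abcb10, a mitochondrial transporter gene (0.47), Slc25a38, a glycine carrier gene of haem synthesis (-0.63), and Blvrb, a biliverdin reductase gene (-1.43), where adjusted p was 0.108, 0.112 and 0.123 in turn. Blvrb read 8.98 and 9.43 in controls and 8.53, 7.22 and 7.57 in deficient cells, again lowest on deficient 2, and differed by -1.15 without that array.

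Iron genes showed 0 of 11 past the threshold in limma (at an unadjusted p under 0.05, 2 were higher and 1 lower; median 0.14). The haemochromatosis gene Hfe differed by 1.10 (SE 0.21, adjusted p = 0.0590), Ireb2, an iron-sensing RNA-binding protein gene that controls Tfrc mRNA, by 0.45, the ferritin gene Fth1 by -0.26 and the iron exporter gene Slc40a1 read 7.73 ± 0.07 and 6.73 ± 0.79. Against control 1 alone, the lower of its controls, Hfe differed by 1.43 (adjusted p = 0.0381, limma), with no spread measured among controls. Membrane and skeleton genes had 0 of 16 past the threshold, and 0 at an unadjusted p under 0.05, with a median of -0.07. Among them Slc2a1, the glucose transporter gene, differed by -0.24, the spectrin gene Sptb by -0.28, Aqp1 by -0.50 and Cd47 by 0.14. Late red cell genes had 0 of 12 past it in limma (1 higher and 2 lower with an unadjusted p under 0.05, median -0.19): Ube2o differed by 0.46, Bpgm by -0.31 and Prdx2 by -0.28. The aspartic protease gene Ctse read 12.72 and 12.82 in controls and 10.47, 9.85 and 13.19 in deficient cells, and it passed as lower once deficient 3 was left out (difference -2.62, adjusted p = 0.0323, limma).

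**Figure D4:**
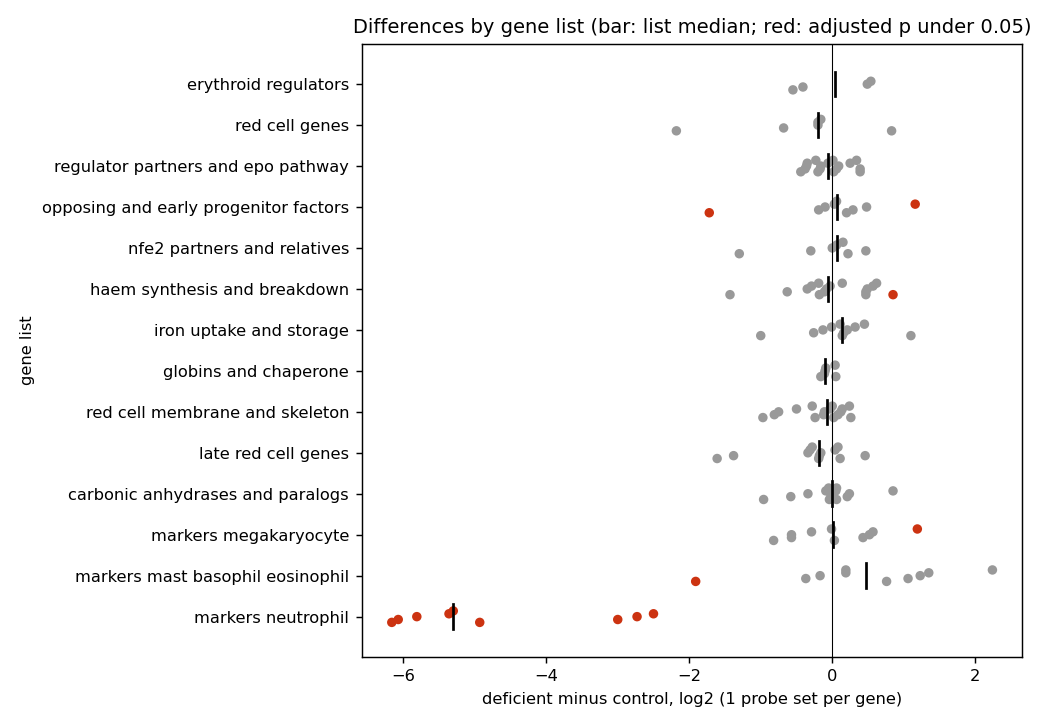
Deficient minus control difference (horizontal axis, log2, 1 probe set per gene) of each measured gene of 14 lists, with list medians as black bars and genes at an adjusted p under 0.05 in red. The regulator and red cell lists hold no red point, whereas all 9 neutrophil markers do, with a median of -5.30.

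Globin genes were read by 15 probe sets. Of 11 with a single symbol, 10 lay below the array median on all arrays and 0 passed in limma, nor did any have an unadjusted p under 0.05; the exception in level, Hba-a2 (1427219_at), read 6.49 ± 0.22 and 6.39 ± 0.30. The other 4 carry several globin symbols and cannot be assigned to a gene. Of these, 3 list Hba-a1 with Hba-a2, the adult alpha-globin genes, and were lower in all deficient arrays. Probe set 1428361_x_at read 10.43 and 9.34 in controls and 6.73, 6.63 and 5.84 in deficient cells, with a mean difference of -3.48 (SE 0.40, adjusted p = 0.0396 in limma). Probe set 1452757_s_at read 9.03 and 7.80, then 4.73, 5.22 and 4.68 (-3.54, SE 0.38, adjusted p = 0.0341). The dimmest, 1417714_x_at, differed by -1.33 and did not pass. With 1 array left out, 1428361_x_at passed in 0 of 5 fits, with differences from -4.03 to -2.94, and 1452757_s_at in 1 of 5, that without control 2.

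The probe set listing 4 adult beta-globin symbols (1417184_s_at) read 9.97 and 9.04 in controls and 7.23, 9.16 and 7.53 in deficient cells, so that deficient 2 lay among the controls. Its difference was -1.53 (SE 0.61, adjusted p = 0.342). The 3 alpha-globin probe sets with several symbols were thus lower in deficient cells, while Alas2 and Slc4a1 were dim in both groups. The Hba-a2 probe set with a single symbol (1427219_at) overlapped between the groups (6.49 ± 0.22 and 6.39 ± 0.30). The globin readings did not follow the order of Car1. On deficient 1, the array with the highest Car1, the beta-globin reading was the lowest.

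**Figure D5:**
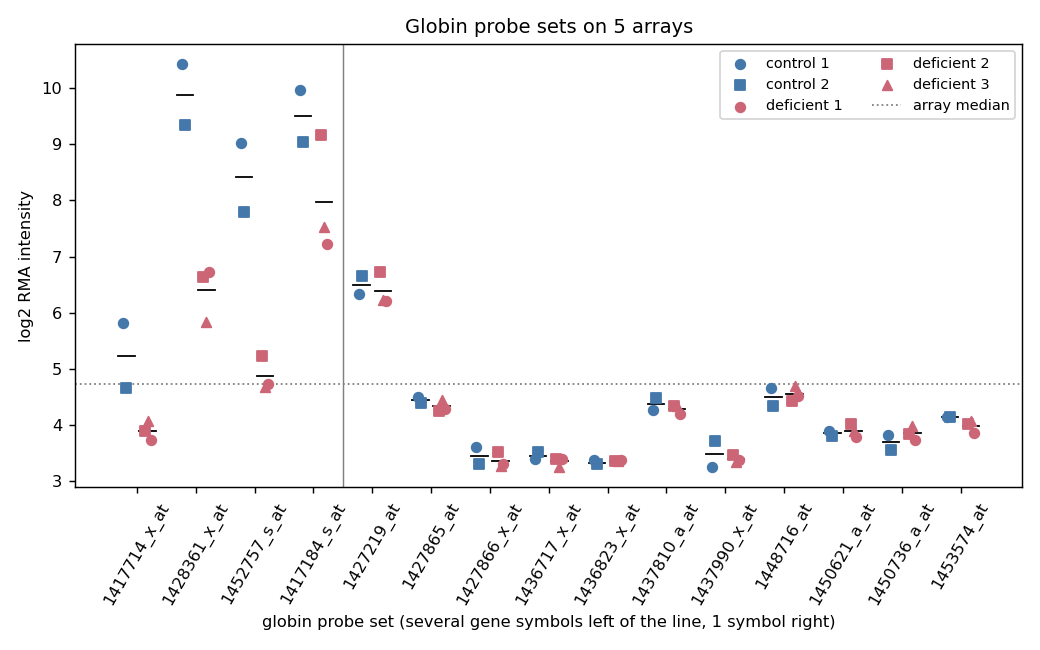
Log2 RMA intensity (vertical axis) of 15 globin probe sets on control (blue) and deficient (red) arrays, with group means as black bars and the array median as a dotted line. The 3 alpha-globin probe sets with several symbols (leftmost) are lower in all deficient arrays, and the beta-globin one overlaps.

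Markers of other cell types moved with the groups. All 9 measured neutrophil markers fell, with a summed intensity of 49600 to 60700 in controls and 1320 to 2340 in deficient cells, and 3 of 7 B and plasma cell markers fell (15900 to 28900 against 1140 to 1250). Of 8 T and NK cell markers 2 fell, 6 had lower means and the median was -0.62. Their summed intensity was 1690 to 2430 against 2400 to 3030, and most of it came from Nkg7, which read 10.41 and 10.91, then 11.30, 11.11 and 11.46, and did not pass. Of 8 macrophage and dendritic cell markers 1 fell (4220 to 6320 against 1540 to 2060). Cd5l, Vcam1 and C1qb of these 8 read below the array median on every array. Of the markers that fell, the neutrophil marker Mmp8 (adjusted p = 0.0665, limma) and the B and plasma cell marker Igll1 (0.0513) did not pass over all probe sets. Nor did Cd247 (0.0615) of the T and NK list or Cd74 (0.0563) of the macrophage and dendritic list. With 1 array left out, the markers that fell numbered 7 to 8, 2 to 4, 1 to 3 and 0 to 1 in these 4 lists. Their part in the alpha-globin result was not tested. Markers of KLS cells and their subsets did not move past the threshold. Of 5 measured, 0 passed in limma and 0 had an unadjusted p under 0.05, with Kit at 10.95 ± 0.18 and 11.02 ± 0.21. Kit alone among them encodes a positive marker of the sort as described above. Ly6a, the Sca-1 gene, was not matched to a probe set of its own and was not measured.

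GATA1, FOG1 and NF-E2 also act in megakaryocytes, and GATA1 in mast cells and eosinophils. Of 10 megakaryocyte markers, 1 rose, Itga2b, the integrin subunit known as CD41, with 10.18 and 10.20 in controls and 11.19, 11.36 and 11.58 in deficient cells, with a mean difference of 1.19 (SE 0.14, adjusted p = 0.0219 in limma; 0.0422 over all probe sets). It passed in 1 of the 5 fits with 1 array left out, that without deficient 1. The summed intensity of the megakaryocyte list was 5510 to 5600 in controls and 5120 to 6920 in deficient cells. Gp5 and Gp1bb, platelet receptor genes, differed by 0.52 and 0.43 and the platelet chemokine gene Pf4 by -0.82, and none of the 3 passed.

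Mast cell, basophil and eosinophil markers had 1 of 10 past the threshold, the eosinophil granule gene Prg2, which fell from 5.77 ± 0.63 to 3.86 ± 0.09 (adjusted p = 0.0288 in limma). Prg2 did not pass over all probe sets (adjusted p = 0.0550), and with 1 array left out it passed without either control only. The list's summed intensity was 1290 to 2070 in controls and 2720 to 4860 in deficient cells. The IgE receptor gene Fcer1a read 6.45 and 7.53, then 10.20, 9.35 and 8.14 (difference 2.24, adjusted p = 0.127), and Mcpt8 and Hdc differed by 1.35 and 1.06 without passing. Their part in the Gata1 and Zfpm1 readings was not tested.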

How the data were processed

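Per the labels' protocols, biotinylated cRNA made from Trizol-extracted RNA went onto Affymetrix mouse arrays. The study hybridised 6 samples and left out 1; 2 control and 3 deficient arrays were used here. The authors made the deposited intensity values with RMA, per the submitters' processing notes (version not given in the sources used here); they are linear and log2 was taken. RMA sets the arrays to a common distribution, so a shift of all transcripts would not be seen. For arrays no depth applies, and their number limits the precision. Columns of other samples numbered 0.

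Differences came from limma 3.58.1 (R 4.3.3; lmFit, eBayes, two-sided) over 45037 probe sets without 64 control probe sets, and over 18193 genes with the probe set of highest mean each. Names are GEO's platform annotation; 174 of 194 listed genes matched. The 10 genes and the 18 lists were chosen with earlier results of these data known. The text names all members and up to 4 genes of each pathway list, from the 4 with the smallest p. It also names every list gene past the threshold among pathway, megakaryocyte and mast cell lists, and the 3 genes most like Klf1 and Car1. In some lists not all of those 4 are named, and Mafk, rank 5 by p in its list, is named besides. The targeted genes were named to set them beside the labels, which the readings of Rb1 and Rbl2 do not check. Kel, Rhag, Rhd, Mt2, Kdm5d, Pklr, Tal1, Lmo2, Epor, Cd5l, Vcam1, C1qb, Nkg7, Kit, Xist, Eif2s3y and the globin probe sets with several symbols were chosen after their values were seen. Alternatives were other normalizations, filters, variance priors, array weights, thresholds, the replicate block, single arrays left out, other rules for a gene's probe sets and, chosen after seeing the data, the Tfrc control probe sets in the fit and Car1 left out.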

Additional observations from a re-analysis of the deposited data

How the results depend on the processing

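Member probe sets past the threshold numbered 0 in each of the 19 alternative fits. The smallest adjusted p of a member in any of them was 0.0970, for Zfpm1 with 1 probe set per gene. The differences of the members' brightest probe sets kept their direction in those fits, except that Slc4a1 ran from -0.51 to 0.12 and Ank1 from -0.34 to 0.02 with 1 array left out. Over all probe sets, against 74 higher and 147 lower, the counts were 141 and 260 with an intensity trend, 451 and 497 at an adjusted p under 0.1, 151 and 257 with 1 probe set per gene and 129 and 259 with the mean of a gene's probe sets. With 1 array left out they ran from 2 to 5 higher and from 21 to 73 lower. List genes past the threshold ran from 0 to 3 higher and from 12 to 15 lower with 1 array left out, against 3 and 17. The gap between regulators and red cell genes was 0.10 without Car1 and ran from 0.28 to 0.62 with 1 array left out. It was 0.43 with cyclic loess, 0.45 with median centring and 0.52 with the mean of a gene's probe sets, against 0.45. Control and deficient arrays share replicate numbers without a stated pairing, and deviations of same-numbered arrays correlated at -0.0527 and -0.0182 across probe sets. With the replicate block the counts were 0 higher and 15 lower, and 0 members. The cause of these shifts was not tested.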

Other observations

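Relatives of the members gave 0 calls in limma. Among 14 carbonic anhydrase, ankyrin and anion exchanger relatives, an unadjusted p under 0.05 was reached by 1 higher and 2 lower genes, and the median was 0.00. Car3, a carbonic anhydrase gene known from muscle and fat, read 9.97 and 9.57 in controls and 8.75, 8.60 and 9.06 in deficient cells, with a mean difference of -0.96 (SE 0.19, adjusted p = 0.0664), but its other 3 probe sets read at most 5.08 and differed by -0.01 to 0.04. Car12, a membrane-bound carbonic anhydrase gene, differed by 0.85 (adjusted p = 0.256), with control 1 at 5.81 and the other 4 arrays between 7.04 and 7.37; against control 1 alone it differed by 1.46 (adjusted p = 0.0377, limma), with no spread measured among controls.

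Of 7 partners and relatives of NF-E2, an unadjusted p under 0.05 was reached by 1 higher gene and 1 lower, and 0 passed in limma. Maff, a small MAF gene, read 7.31 and 6.18 in controls and 5.28, 5.52 and 5.54 in deficient cells, with a mean difference of -1.30 (SE 0.32, adjusted p = 0.104); against control 1 alone, the higher control, it differed by -1.87 (adjusted p = 0.0293, limma), again with no spread among controls. Mafg and Mafk, the small MAF genes best known as NF-E2 partners, differed by 0.22 and 0.15, and the other Mafg probe set by 0.72 without passing.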
